A study of Trichoderma reesei with 8 samples.

Results

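The gene models described here had their highest level 5 h after glucose was added to straw-grown cultures of Trichoderma reesei, a filamentous fungus that secretes enzymes able to break down plant cell walls. They were chosen by their levels. Counts scaled by library size (CPM, reads per 1e6 reads counted on gene models) were averaged per condition, and 1 CPM was added to each mean before ratios were taken. A model was included when its mean at 5 h glucose was at least 20 CPM, its 5 h glucose level was at least 4 times that in 24 h straw and at least 4 times that in 48 h glucose, and its straw level was less than 4 times that in 48 h glucose. Models on scaffold 29 were left out, where 4 more met the other limits. The rule found 55 of the 9126 gene models in the files, or 0.603%. Because all 3 contrasts between the conditions were used in the choice, the levels and ratios of these models are given as a description and carry no test.

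The mycelium came from 1 strain, wild-type QM6a. Conidia were grown for 48 h at 28°C and 150 rpm in 1% (w/v) glucose (48 h glucose, 3 libraries). The mycelium was washed and moved to 1% wheat straw with no added sugar for 24 h (24 h straw, 3 libraries), and glucose was then added to 1% for a further 5 h (5 h glucose, 2 libraries). The 5 h glucose cultures still held the straw, and they were older than those of 48 h glucose, so a difference between these conditions is one of carbon source, culture age and history together. The libraries of a condition came from independent cultures, as the methods describe them. The libraries were read by SOLiD sequencing in bulk, and a larger part of the hyphae transcribing a gene cannot be told apart from more transcript per hypha.

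Reads counted on gene models numbered 1337099 to 1704969 in 48 h glucose, 2473359 to 2997433 in straw and 798550 and 950244 in 5 h glucose, so the condition in which these models were highest was also the shallowest. The closeness of 2 libraries was taken over models with at least 2000 summed reads. It was the median squared difference over that of counting noise, so it is not a ratio of spreads. It was 1.65 for straw libraries 1 and 3, against 20.7 to 53.9 for the other pairs of straw and of 48 h glucose. The 5 h glucose pair differed most, at 172. The summed level of 4 models that the study lists as straw-induced was 4327 to 5093 CPM in the straw libraries. It was 41.1 to 49.3 CPM in 48 h glucose and 119 to 132 CPM in 5 h glucose. The study drew that list from these same data, so this is no independent check of the labels.

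In T. reesei a readily used sugar such as glucose represses the genes for enzymes that degrade cellulose and xylan, a response known as carbon catabolite repression in which the repressor CRE1 takes part. The models described here had another order: they were lower both on straw and in the culture first grown on glucose, and highest after glucose had been given to mycelium already on straw. Transcripts that stand highest soon after a nutrient is supplied can belong to any function, and the order of 3 conditions does not name one.

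Together the 55 models held 1.49 ± 0.0114% (SD, n = 3) of the counted reads in 48 h glucose, 0.978 ± 0.0110% (SD, n = 3) in straw, and 6.48% and 7.95% in the 2 libraries of 5 h glucose. The 5 h glucose mean of 7.22% was 7.38-fold that of straw and 4.86-fold that of 48 h glucose. Most of this weight lay in few transcripts. The 3 models with most reads held 3.42% of the reads in 5 h glucose library 1 and 5.86% in library 2, which was 52.7% and 73.7% of the reads of all 55. The other 52 held 3.07% and 2.09%, and their summed share was still 7.06-fold that of straw and 5.84-fold that of 48 h glucose.

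**Figure D1:**
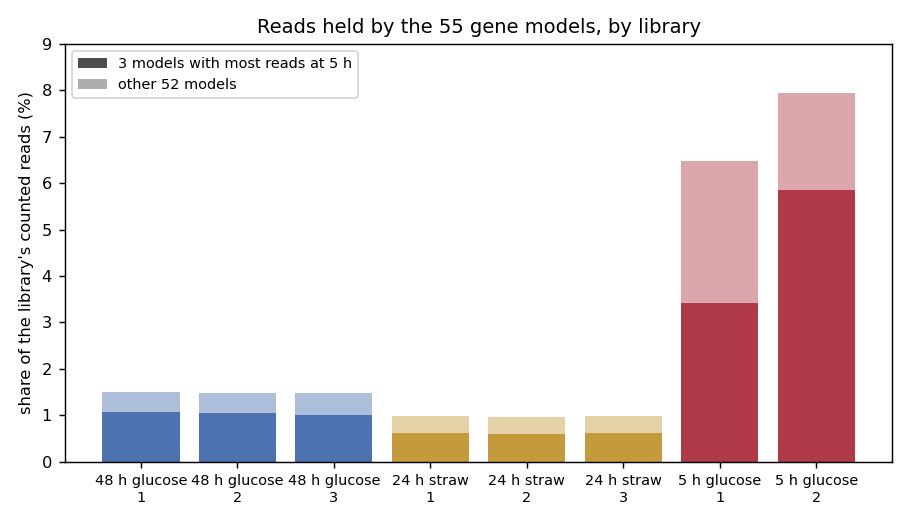
Share of each library's counted reads, in percent, held by the 55 gene models. Each bar is 1 library, with the 3 models of most reads at 5 h glucose in the dark part and the other 52 in the light part. The bars stand near 1.5% in 48 h glucose and 1% in straw, and at 6.48% and 7.95% in 5 h glucose.

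The 3 leading transcripts were among the most abundant of all at 5 h glucose. On the deposited RPKM, which divides reads by transcript length and library total, they held places 1, 2 and 5 of all models in 5 h glucose library 1 and places 1, 2 and 3 in library 2. The first was estExt_fgenesh5_pg.C_270120 (scaffold 27, listed length 623 bases), with no product named in the sources used here. It stood at 5201, 5217 and 5562 CPM in 48 h glucose, 3498, 3544 and 3445 CPM in straw, and 14286 and 36292 CPM in 5 h glucose. It was therefore already abundant in every library, and its 5 h glucose mean was 7.23 times that of straw and 4.75 times that of 48 h glucose. The 2 libraries of 5 h glucose differed 2.54-fold, and both lay above the other 6. Its mean RPKM was 962 in 48 h glucose, 1062 in straw and 3317 in 5 h glucose, so the order of straw and 48 h glucose depended on the scale while that of 5 h glucose did not.

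The next was estExt_fgenesh5_pg.C_70146 (transcript ID 121350), whose product is listed as related to CipC1. CipC was first described in Aspergillus nidulans as a protein induced by the antibiotic concanamycin. The model lies on scaffold 7 from base 427746 to 428277, and its listed length was 414 bases. Its level was 2988, 2504 and 1811 CPM in 48 h glucose, 815, 573 and 852 CPM in straw, and 11128 and 9524 CPM in 5 h glucose. The 3 conditions did not overlap, and their order was straw, 48 h glucose, 5 h glucose. The ratio was 13.8 over straw and 4.24 over 48 h glucose, and the fitted log2 differences were 3.94 (SE 0.25) and 2.17 (SE 0.24).

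The third was estExt_GeneWisePlus.C_10856 (scaffold 1, 733 bases), again without a product. It stood at 2424, 2834 and 2795 CPM in 48 h glucose, 1841, 1936 and 1887 CPM in straw, and 8765 and 12819 CPM in 5 h glucose. The conditions did not overlap, with ratios of 5.71 over straw and 4.02 over 48 h glucose, the latter one of the nearest to the limit of the rule. The fitted log2 difference of straw from 48 h glucose was -0.57 (SE 0.21), and became 0.24 with the library totals behind the deposited RPKM.

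At 5 h glucose the 55 models covered 20.8 to 25289 CPM. Their median there was 290 CPM, against 45.3 CPM over the 7211 models tested. Their medians were 38.8 CPM in straw and 52.2 CPM in 48 h glucose. At 5 h glucose 11 models were at 1000 CPM or more, 40 at 100 CPM or more and 15 below 100 CPM. The median ratio was 5.88 over straw and 5.64 over 48 h glucose, where all tested models had 0.883 and 0.984. The smaller of a model's ratios was under 6 in 45 of the 55 and at least 8 in 4, so most members lay within a narrow band above the limit of 4.

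**Figure D2:**
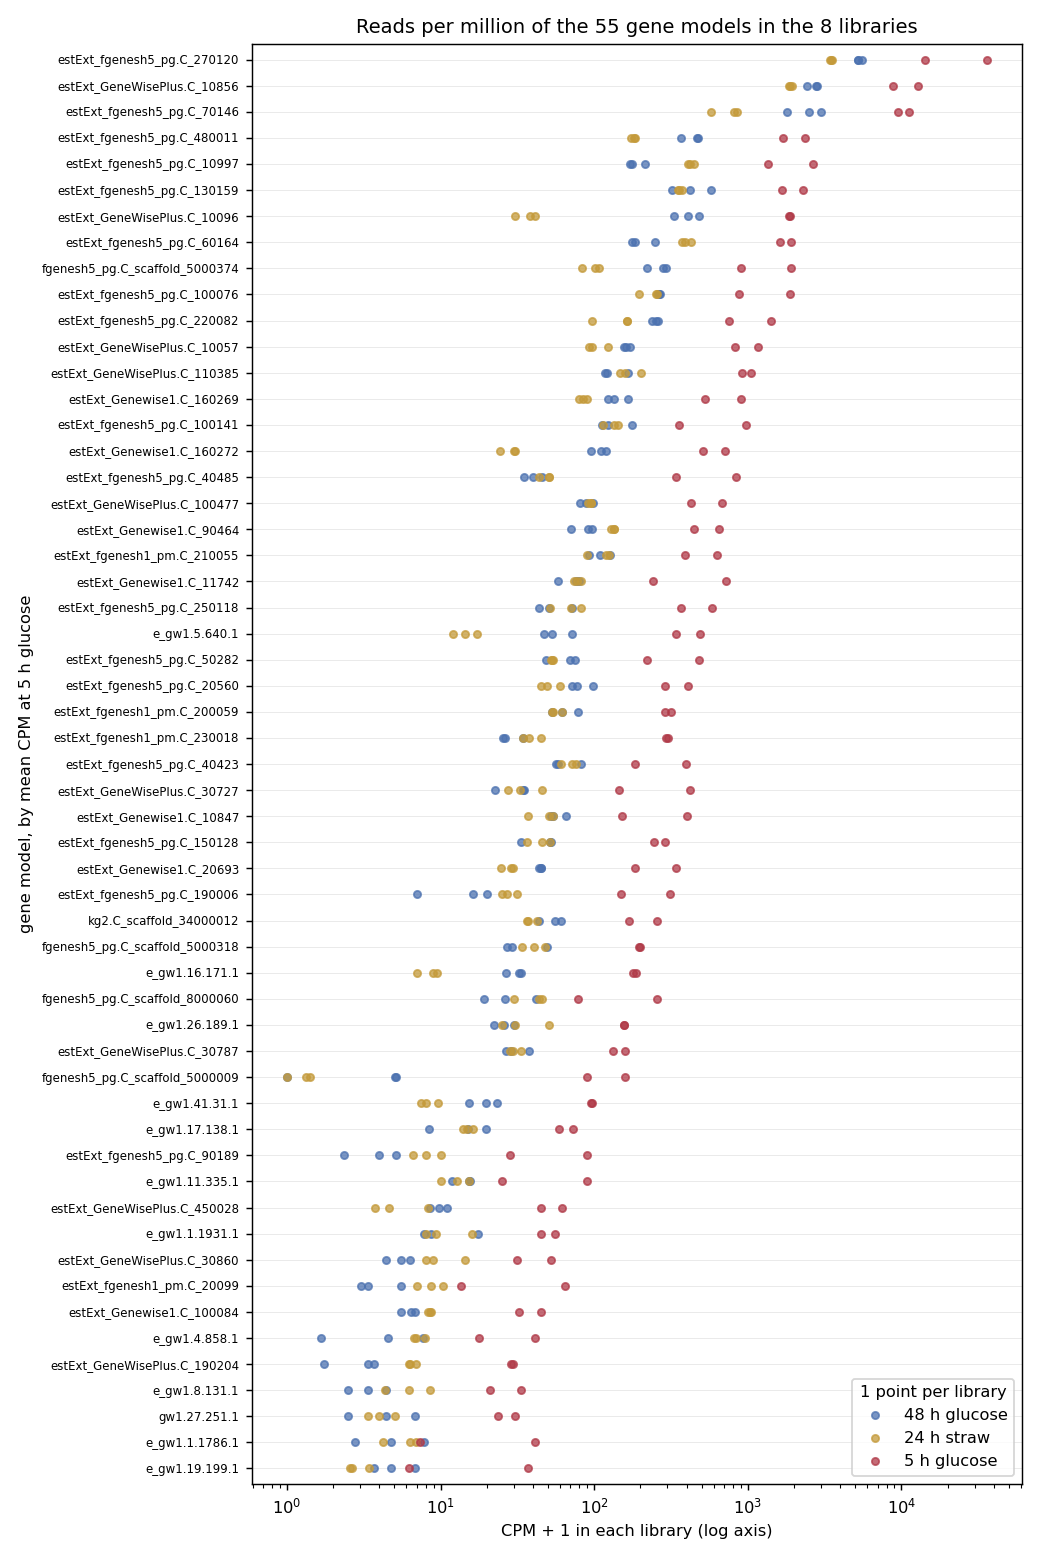
CPM + 1 of each of the 55 gene models (rows, ordered by mean CPM at 5 h glucose) in the 8 libraries, on a log axis. Each point is 1 library, coloured by condition. Both 5 h glucose points lie to the right of the other 6 in 53 rows, and not in the last 2 rows.

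Called by edgeR's quasi-likelihood test at a Benjamini-Hochberg adjusted p below 0.05, all 54 members that passed the filter on low counts were higher at 5 h glucose than in both other conditions, where 14.7% of all models tested were. The separate backgrounds were 28.5% higher than straw and 25.7% higher than 48 h glucose. Both 5 h glucose libraries lay above the other 6 in 53 of the 55 members, against 15.7% of the models tested. The rule used these contrasts and fixed these counts, so nothing is read from them. The member that did not pass the filter was e_gw1.19.199.1.

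The members nearest to the limit show how the choice was made. Just inside were kg2.C_scaffold_34000012 with a smaller ratio of 4.01, estExt_GeneWisePlus.C_10856 with 4.02 and estExt_GeneWisePlus.C_30860 with 4.03. The first of these stood at 59.8, 54.2 and 42.6 CPM in 48 h glucose, 35.6, 35.8 and 41.7 CPM in straw, and 168 and 257 CPM in 5 h glucose. The last stood at 5.28, 3.39 and 4.49 CPM, 13.3, 7.87 and 7.01 CPM, and 51.3 and 30.5 CPM in the same order. Just outside were estExt_GeneWisePlus.C_140401 with 3.98, fgenesh1_pm.C_scaffold_1000317 with 3.96 and fgenesh1_pm.C_scaffold_4000248 with 3.93. The last of these was an abundant transcript, with means of 555 CPM in 48 h glucose, 321 CPM in straw and 2183 CPM in 5 h glucose, so the limit separated models of like pattern.

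**Figure D3:**
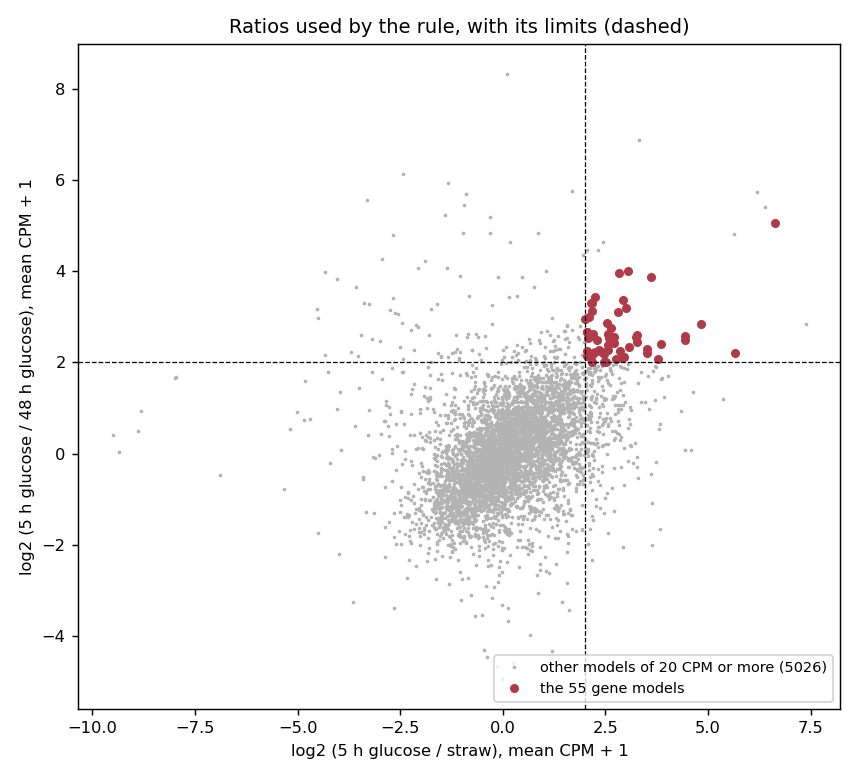
Ratio of 5 h glucose to straw (horizontal) and to 48 h glucose (vertical), both as log2 of mean CPM + 1, for models of at least 20 CPM at 5 h glucose. Dashed lines mark the ratio of 4; the 55 members are the red points above both lines, many of them close to a line, and the few grey points there are models on scaffold 29 or with straw at 4 times 48 h glucose or more.

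The members differed in where they stood before glucose was added. The closer of the other conditions was 48 h glucose for 30 members and straw for 25. The ratio of straw to 48 h glucose was 0.968 at its median and between 0.0907 and 2.27 in all members, and it lay within 2-fold in 42 members. Over the 5081 models of at least 20 CPM at 5 h glucose its median was 0.964, with quartiles of 0.631 and 1.42. A ratio within 2-fold therefore does not set the members apart, and the rule itself limited its upper end. In 9 members 48 h glucose was over 2 times straw, and in 4 straw was over 2 times 48 h glucose. Of the 54 members tested, 17 were called lower and 6 higher in straw than in 48 h glucose, where 28.2% and 30.6% of all models were called. All 3 straw libraries lay below all 3 of 48 h glucose in 18 members (29.8% of the models tested) and above them in 10 (37.7%). These counts depended on the scale. With the totals behind the RPKM, the straw mean exceeded that of 48 h glucose in 43 of 55 members, against 25 by CPM. On those totals 27 of the 54 members tested were called higher and 8 lower in straw. Of all 7357 models tested there, 4418 were called higher and 753 lower, so the shift was not particular to the members.

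**Figure D4:**
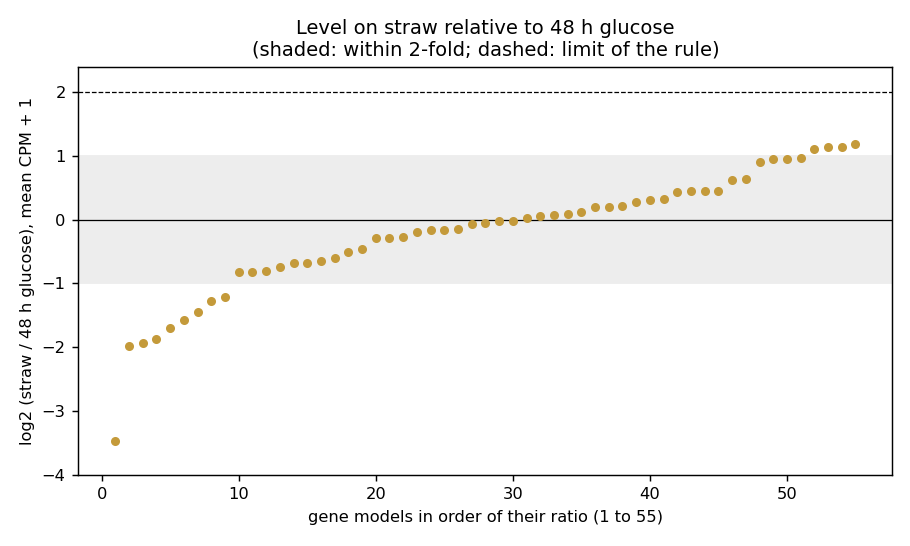
log2 of the straw level over the 48 h glucose level (mean CPM + 1) of the 55 members, in order of this ratio. Each point is 1 gene model, the band marks 2-fold either way and the dashed line the limit of the rule; 42 members lie within the band, 9 below it and 4 above it.

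The lowest straw level relative to 48 h glucose was that of estExt_GeneWisePlus.C_10096 (scaffold 1, 1635 bases). It stood at 328, 408 and 478 CPM in 48 h glucose, only 29.5, 37.4 and 40.4 CPM in straw, and 1848 and 1877 CPM in 5 h glucose. The level in straw was thus 0.0907 of that in 48 h glucose, and the 5 h glucose level was 50.7 times that of straw but 4.60 times that of 48 h glucose. The fitted log2 differences were 5.85 (SE 0.24) from straw and 2.29 (SE 0.20) from 48 h glucose. The 2 libraries of 5 h glucose were close to each other, and the 3 conditions did not overlap.

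The same order of the conditions was seen in e_gw1.5.640.1 (scaffold 5, 1296 bases), which stood at 52.2, 70.4 and 46.4 CPM in 48 h glucose, 16.2, 13.4 and 11.0 CPM in straw, and 339 and 487 CPM in 5 h glucose. Its ratios were 28.5 over straw and 7.23 over 48 h glucose. The longest member, estExt_fgenesh5_pg.C_480011 (scaffold 48, 3854 bases), stood at 466, 365 and 476 CPM, 183, 180 and 173 CPM, and 2373 and 1687 CPM in the same order. For it, as for e_gw1.5.640.1, no library of one condition reached the range of another. The short model fgenesh5_pg.C_scaffold_5000374 (scaffold 5, 543 bases) stood at 294, 279 and 221 CPM in 48 h glucose, 107, 82.7 and 99.8 CPM in straw, and 1898 and 906 CPM in 5 h glucose. Its ratio was 14.4 over straw and 5.29 over 48 h glucose, and its 5 h glucose libraries were 2.10-fold apart. Besides estExt_fgenesh5_pg.C_70146 above, the other models in which 48 h glucose was over 2 times straw were estExt_Genewise1.C_160272, e_gw1.16.171.1, e_gw1.41.31.1 and fgenesh5_pg.C_scaffold_5000009.

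The last of these, fgenesh5_pg.C_scaffold_5000009 (scaffold 5, 1035 bases), was nearly silent before glucose was added to the straw. Reads numbered 7, 6 and 0 in 48 h glucose, 1, 0 and 1 in straw, and 71 and 150 in 5 h glucose, or 88.9 and 158 CPM. Set against a floor of 3 reads per library, its 5 h glucose mean was at least 109-fold higher than that of straw. Its lower library of 5 h glucose was 21.7 times its highest other library, the widest such gap of the 55 members.

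At the other end, 4 members had a straw level over 2 times that of 48 h glucose: estExt_fgenesh5_pg.C_10997, estExt_fgenesh5_pg.C_90189, estExt_fgenesh1_pm.C_20099 and estExt_GeneWisePlus.C_190204. The most abundant was estExt_fgenesh5_pg.C_10997 (scaffold 1, 1041 bases), at 177, 213 and 170 CPM in 48 h glucose, 408, 444 and 420 CPM in straw, and 2672 and 1361 CPM in 5 h glucose. The conditions did not overlap, in the order 48 h glucose, straw, 5 h glucose, and its ratios were 4.75 over straw and 10.8 over 48 h glucose. A like order was seen in estExt_fgenesh5_pg.C_60164 (scaffold 6, 1527 bases), at 184, 174 and 249 CPM, 390, 423 and 373 CPM, and 1622 and 1924 CPM, where straw was 1.95 times 48 h glucose.

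In most members, as in most models of at least 20 CPM at 5 h glucose, straw and 48 h glucose were alike within 2-fold. The largest smaller ratio among these members was that of estExt_fgenesh5_pg.C_40485 (scaffold 4, 1275 bases), with 12.2 over straw and 14.7 over 48 h glucose. It stood at 34.0, 44.7 and 38.9 CPM in 48 h glucose, 42.9, 50.0 and 49.7 CPM in straw, and 840 and 342 CPM in 5 h glucose, so that the baseline conditions overlapped while the 5 h glucose libraries lay far above them. The 5 h glucose libraries lay close together for estExt_fgenesh1_pm.C_230018 (scaffold 23, 1296 bases), which stood at 24.6, 33.2 and 25.4 CPM, 33.6, 44.1 and 36.7 CPM, and 294 and 301 CPM, with ratios of 7.64 and 10.4. For estExt_fgenesh5_pg.C_190006 (scaffold 19, 1039 bases) the values were 15.2, 19.0 and 5.98 CPM, 24.3, 26.0 and 30.4 CPM, and 309 and 149 CPM. Its ratios were 8.27 over straw and 16.0 over 48 h glucose, and straw lay above 48 h glucose in every library.

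Longer transcripts with a straw level within 2-fold of 48 h glucose were estExt_fgenesh5_pg.C_130159 (scaffold 13, 2212 bases) and estExt_GeneWisePlus.C_10057 (scaffold 1, 2989 bases). The former stood at 417, 322 and 572 CPM in 48 h glucose, 373, 350 and 353 CPM in straw, and 2293 and 1666 CPM in 5 h glucose. The latter stood at 171, 155 and 161 CPM, 91.0, 122 and 95.4 CPM, and 1161 and 825 CPM, with ratios of 9.58 over straw and 6.08 over 48 h glucose. In both, the 5 h glucose libraries were above all others. The model estExt_fgenesh5_pg.C_250118 (scaffold 25, 1925 bases) had 42.8, 49.4 and 70.3 CPM, 81.7, 50.8 and 69.4 CPM, and 582 and 368 CPM. Its straw and 48 h glucose libraries overlapped, and its ratios were 6.98 and 8.63.

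The 2 libraries of 5 h glucose did not give these models equal levels. Of the 55 members, 36 (65.5%) were higher in library 1 and 19 in library 2. Of the 5081 models of at least 20 CPM at 5 h glucose, 57.1% were higher in library 1. The 2 libraries were at least 2-fold apart in 32.7% of members, 17 of them higher in library 1 and 1, estExt_fgenesh5_pg.C_270120, higher in library 2. Over the 5081 models of at least 20 CPM at 5 h glucose, 9.29% were that far apart. The median log2 ratio of library 1 to library 2 was 0.52 in the members and 0.10 in those 5081 models.

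**Figure D5:**
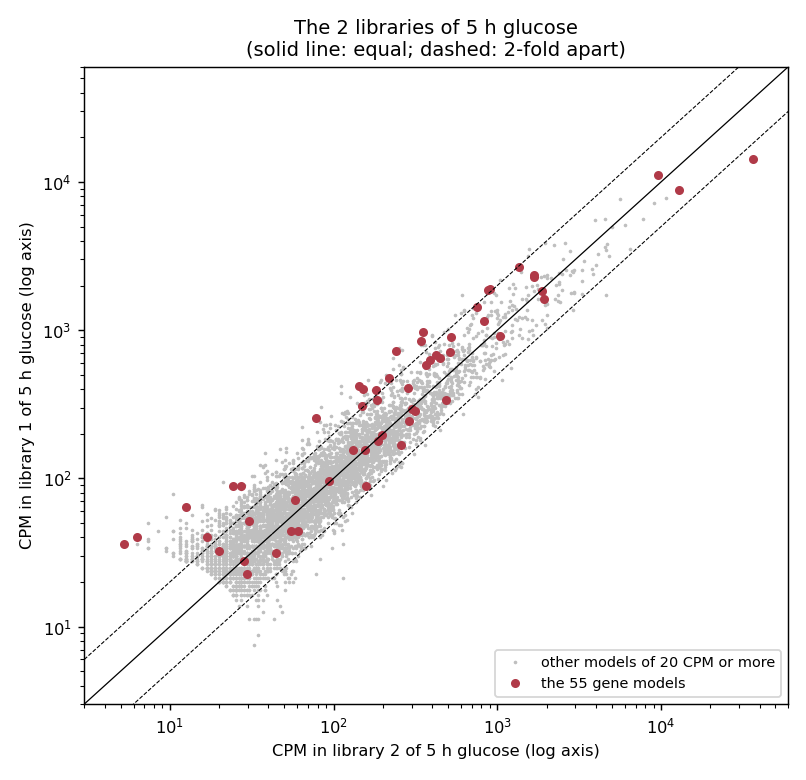
CPM of each gene model in library 2 (horizontal) and library 1 (vertical) of 5 h glucose, on log axes, for models with a mean of at least 20 CPM. The solid line marks equal levels and the dashed lines 2-fold apart; 17 of the 55 members (red) lie above the upper line and 1 below the lower.

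Several members were over 2-fold higher in library 1 than in library 2. Of those given here, only estExt_GeneWisePlus.C_30727 met the rule with library 2 alone. The model estExt_Genewise1.C_11742 (scaffold 1, 1375 bases) stood at 724 CPM in library 1 and 241 CPM in library 2 of 5 h glucose, over 79.2, 56.9 and 74.8 CPM in 48 h glucose and 80.9, 73.2 and 75.7 CPM in straw. For estExt_GeneWisePlus.C_30727 (scaffold 3, 2168 bases) the 5 h glucose levels were 420 and 143 CPM, over 34.0, 21.7 and 33.7 CPM in 48 h glucose and 26.3, 31.9 and 44.7 CPM in straw. For estExt_fgenesh5_pg.C_90189 (scaffold 9, 1355 bases) they were 88.9 and 27.4 CPM, over 4.11, 1.35 and 2.99 CPM and 5.66, 7.08 and 9.01 CPM. Library 2 was still above all 6 other libraries in each of these. For estExt_fgenesh5_pg.C_100076 (scaffold 10, 707 bases), at 267, 259 and 263 CPM in 48 h glucose and 256, 194 and 252 CPM in straw, the 5 h glucose levels were 1880 and 875 CPM.

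Setting the lower 5 h glucose library of each member against its highest other library gave a median ratio of 3.19. It was at least 4 in 18 members, at least 2 in 50 and above 1 in 53. The exceptions were e_gw1.1.1786.1 with 0.932 and e_gw1.19.199.1 with 0.897. Both had under 10 reads in 5 h glucose library 2, and their place among the members came from library 1.

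Applied with only 1 library of 5 h glucose, the rule found 104 models by library 1, of which 50 were among the 55, and 39 models by library 2, of which 29 were. The 24 models found by each library alone had to be members, because the rule acts on the mean of the 2 libraries. The library of 5 h glucose not used was then read against the same straw and 48 h glucose libraries that had served in the choice, so the ratios are not independent of it. The 104 models chosen without library 2 had a median smaller ratio of 2.65 in library 2, against 4.97 in the library that chose them. At least 4 was reached by 25. The 39 models chosen without library 1 had a median of 4.56 in library 1, against 4.84 where they were chosen, and 24 reached at least 4. When a library of 48 h glucose or straw was held out, 53 to 62 models were chosen, of which 49 to 53 were among the 55.

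The size of the ratios depended on how libraries were scaled. The counted reads were 10.2 and 7.38 per 100 of the library totals behind the deposited RPKM in 5 h glucose, but 18.2 to 20.2 in straw and 10.1 to 12.2 in 48 h glucose. On those totals the median ratio of the 55 members was 2.61 over straw and 3.72 over 48 h glucose. All 55 members were higher at 5 h glucose than in each other condition, and both 5 h glucose libraries lay above the other 6 in 45. The members had been chosen as at least 4 times higher by CPM. No share over all models was computed on those totals, so nothing is read from these counts. However, only 11 reached 4-fold over straw and 21 over 48 h glucose, and 6 models met the whole rule, all of them members: estExt_GeneWisePlus.C_10057, estExt_Genewise1.C_160272, estExt_Genewise1.C_20693, estExt_fgenesh5_pg.C_40485, e_gw1.5.640.1 and fgenesh5_pg.C_scaffold_5000374. The same totals moved the median log2 difference of all genes tested to -1.33 for 5 h glucose from straw and -0.40 for 5 h glucose from 48 h glucose.

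In the study's supplementary tables as available here, a transcript ID could be found for 9 of the 55 members (16.4%), against 2113 of all models (23.2%). Only a part of the study's supplementary gene list, with 1577 models, was available. A missing ID or product therefore does not mean that the study gave none. A product was listed for 5 of the 9 and the word unknown for the other 4, and no ID was found for 46 members, so 50 of the 55 have no product here. Positions of the 9 were read from the RefSeq annotation of assembly v2.0 by that ID.

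Beside the CipC1-related model above, the most abundant member with a listed product at 5 h glucose was e_gw1.26.189.1 (transcript ID 68813). It is listed as an MSF permease, a membrane protein that carries small molecules into or out of the cell. It lies on scaffold 26 from base 366102 to 367442. Its level was 21.1, 25.1 and 29.2 CPM in 48 h glucose, 24.3, 49.6 and 29.4 CPM in straw, and 155 and 156 CPM in 5 h glucose. The 5 h glucose libraries lay close together and above all others, while straw and 48 h glucose overlapped. The ratios were 4.42 over straw and 5.99 over 48 h glucose, with fitted log2 differences of 2.32 (SE 0.25) and 2.73 (SE 0.27).

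The model e_gw1.17.138.1 (transcript ID 66041) is listed as a chitinase of family GH18, a group of enzymes that cleave chitin, a polymer of the fungal cell wall. It lies on scaffold 17 from base 372708 to 373644. It stood at 14.1, 7.45 and 18.7 CPM in 48 h glucose, 15.4, 13.8 and 13.0 CPM in straw, and 71.4 and 57.9 CPM in 5 h glucose. Both 5 h glucose libraries lay above the other 6, and the ratios were 4.36 and 4.56. It was the only member among the 6 models with this annotation in the part of the study's tables available here, of which 3 passed the filter. The other 2 that passed had other orders. The model e_gw1.10.565.1 had means of 25.6 CPM in 48 h glucose, 30.9 CPM in straw and 6.19 CPM in 5 h glucose, and e_gw1.15.102.1 had 54.7 CPM in straw and 3.26 CPM in 5 h glucose, with no read in 48 h glucose. Both were called lower at 5 h glucose than in straw, where 30.0% of all models were.

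The remaining products belonged to the members with the fewest reads. The model e_gw1.1.1786.1 (transcript ID 53986), a putative hydrolase of the TatD family, named after a metal-dependent nuclease of Escherichia coli, lies on scaffold 1 from base 1728638 to 1729961. It stood at 1.76, 6.77 and 3.74 CPM in 48 h glucose, 3.23, 5.90 and 5.34 CPM in straw, and 40.1 and 6.31 CPM in 5 h glucose, or 32 and 6 reads. Library 2 of 5 h glucose lay within the range of the other conditions. The model e_gw1.19.199.1 (transcript ID 66835), listed as a putative small subunit of NADH-ubiquinone oxidoreductase, complex I of the respiratory chain, lies on scaffold 19 from base 360195 to 360557. It stood at 5.87, 2.71 and 3.74 CPM, 2.43, 1.57 and 1.67 CPM, and 36.3 and 5.26 CPM, or 29 and 5 reads in 5 h glucose. Again library 2 did not exceed the highest other library. Other models with the same annotation, e_gw1.17.231.1 and e_gw1.2.497.1, had means of 17.4, 7.56 and 20.7 CPM and of 43.9, 32.2 and 60.0 CPM in 48 h glucose, straw and 5 h glucose, and neither met the rule.

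The members were also looked for in wider functional groups. At the share of 0.603% that members make of all models, fewer than 1 would be found in each of these groups, so nothing is read from a group that held none. Among 117 annotated models of transporters or permeases 1 was a member. Of the 87 tested, 23 were called higher and 40 lower at 5 h glucose than in straw, where 28.5% and 30.0% of all models were, and 21 were higher and 21 lower than in 48 h glucose, where 25.7% and 23.2% were. With the totals behind the RPKM these counts were 6 and 62, and 10 and 29. Of all 7357 models tested on those totals, 442 were higher and 4970 lower than straw. Against 48 h glucose 845 were higher and 2419 lower. Among 125 models of oxidoreductases, dehydrogenases, reductases or cytochromes P450 1 was a member, and of the 79 tested 20 were higher and 33 lower than in straw (5 and 52 with those totals), and 12 higher and 26 lower than in 48 h glucose (6 and 31). No member was found among 32 other glycoside hydrolases, 71 models of transcription factors, 64 of kinases or phosphatases, 37 of proteases or 34 for amino acid, ammonium, nitrate or sulfate use. The same held for 26 methyltransferases, 16 FAD or FMN proteins, 13 receptors, 9 heat shock proteins or chaperones, 6 polyketide or nonribosomal peptide synthases and 6 hydrophobin or cell wall proteins. Models of ribosomal or ribosome-related proteins also held none of the 55. Of 21 tested, 14 were called higher and 0 lower at 5 h glucose than in straw, where 28.5% and 30.0% of all models were. Against 48 h glucose the counts were 7 and 3, where 25.7% and 23.2% were. With the totals behind the RPKM the counts over straw became 4 higher and 6 lower, where 442 and 4970 of all 7357 models were. These groups cover annotated models only, so the 50 members with no product could not fall in any of them. The annotation available here reached 2113 of the 9126 models, so each group holds only a part of its family.

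What else the members shared was limited. Their median listed length was 1233 bases (range 207 to 3854), against 1416 bases for all models tested and 1536 bases for the 5081 models of at least 20 CPM at 5 h glucose. They lay on 27 of the 72 scaffolds. Scaffold 1 held 8 members among its 1025 models, scaffold 5 held 5 of 476, scaffold 10 held 4 of 349, and scaffolds 16 and 19 held 3 each of 214 and 193. For the 9 members with a known position, 8 of the 18 immediate neighbours could be matched to a model in the files, and 0 of these were members. Their ratio of 5 h glucose to straw ran from 0.249 to 3.29, and that to 48 h glucose from 0.349 to 4.66. The neighbour e_gw1.1.226.1, 100 bases from e_gw1.1.1786.1, had means of 24.2 CPM in 48 h glucose, 41.4 CPM in straw and 28.9 CPM in 5 h glucose. The neighbour e_gw1.8.562.1, 579 bases from the member fgenesh5_pg.C_scaffold_8000060, had 64.4, 90.5 and 21.8 CPM in the same order. Neither of these neighbours had its highest level at 5 h glucose, whereas e_gw1.11.200.1, 568 bases from the member e_gw1.11.335.1, did, with 116, 48.9 and 163 CPM. The matched neighbour e_gw1.17.184.1 was also highest at 5 h glucose, by a small margin, with 38.7, 48.8 and 57.9 CPM. So were e_gw1.26.217.1 and estExt_GeneWisePlus.C_260215, but their means there were only 4.41 and 1.25 CPM. Both were lower still in the other conditions, so nothing is read from their order.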

How the data were processed

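RNA from T. reesei QM6a was sequenced as SOLiD reads. Per the labels and the methods, the authors aligned reads with BioScope 1.3 and counted them on gene models with HTSeq, whose version is not given in the sources used here. The deposited files hold raw counts, listed lengths and RPKM; RPKM was scaled by the authors to library totals of 7838128 to 16471040, calculated back here from the deposited counts. The methods describe sense-strand and unstranded counts, and the headers do not say which of these the files hold. Counts were scaled to CPM by their sum (Python 3.11.15, pandas 2.3.3). All 9126 models went to edgeR 4.0.16 (TMM, filterByExpr, quasi-likelihood, 1 model of 8 libraries with condition as the term, Benjamini-Hochberg), which tested 7211; DESeq2 1.42.0, other scalings, filters and limits, a replicate block and leaving out each library were alternatives. Fitted log2 differences carry the SE of that fit. P-values measure the spread between libraries, which the methods describe as independent cultures.

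The members, gene lists and tests were chosen with earlier results of these data known. Members named with values were the 10 highest at 5 h glucose, the 10 of the largest smaller ratio, those with a known product and the 3 on each side of the limit; others are given by count, or were named after their values were seen. Product names and transcript IDs came from the part of the study's supplementary tables available here. Positions came from RefSeq (assembly v2.0), matched on transcript ID. A match was found for 2091 IDs, and in all of them the listed length did not exceed the genomic length. The floor is 3 reads per library and covers counting error only. No sequences were used.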

Additional observations from a re-analysis of the deposited data

How the results depend on the processing

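Of 111 comparisons of a summary value with its alternatives, 100 stayed within the spread or within 1.5 times and 11 moved. Some of the 100 could not have moved. A ratio between 2 conditions keeps its value when a library of the remaining condition is left out. Leaving out 1 of the 2 libraries of 5 h glucose always shifts their mean share by less than its SD. A count within 1.5 times can also hold other models: of the 39 without 5 h glucose library 1, 29 were among the 55. The tally is therefore no measure of stability. The 55 members became 6 with the library totals behind the RPKM and 6 on the deposited RPKM, 141 at a ratio of 3, 10 at a ratio of 6, and 17 when the lowest 5 h glucose library was set against the highest of each other condition. Leaving out 1 library gave 39 to 104, the latter without 5 h glucose library 2 and the former without library 1. TMM gave 67, and straw libraries 1 and 3 as 1 library gave 53.

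With the totals behind the RPKM the median log2 ratio of the members moved from 2.56 to 1.38 over straw, from 2.50 to 1.89 over 48 h glucose and from -0.05 to 0.55 for straw over 48 h glucose, and their share at 5 h glucose was 0.624% of those larger totals. Leaving out 1 library gave 2.32 to 2.89, 2.26 to 2.76 and -0.18 to 0.020 for the medians, the lowest of the last without 48 h glucose library 2, and 6.48 to 7.95% for the share. Fitted values were compared only for the 26 members named by the stated choice. Among them, straw over 48 h glucose changed sign on those totals for estExt_GeneWisePlus.C_10856 (0.24), estExt_GeneWisePlus.C_10057 (0.091) and kg2.C_scaffold_34000012 (0.26), all called lower in straw by the reported fit. It also changed sign for estExt_fgenesh5_pg.C_270120 (0.14), estExt_fgenesh5_pg.C_130159 (0.48) and estExt_fgenesh5_pg.C_100076 (0.57), which were not called. Over all 55 members, the straw mean exceeded that of 48 h glucose in 43 on those totals, against 25 by CPM. The cause was not tested.

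Models called numbered 2056 higher and 2166 lower for 5 h glucose over straw, 1850 and 1671 over 48 h glucose, and 2203 and 2034 for straw over 48 h glucose. With the totals behind the RPKM they were 442 and 4970, 845 and 2419, and 4418 and 753. DESeq2 called 3996, 3347 and 4093. Leaving out 1 library gave 3650 to 4262, 2795 to 3468 and 3708 to 4596; without 5 h glucose library 1, 52 of 55 members were called higher over each condition. The replicate numbers were not shown to pair the libraries, since same-numbered deviations correlated at -0.0271 to 0.153. The replicate block called 4097, 3388 and 4199 models. Members with under 10 reads in a 5 h glucose library, 2 of 55, are limited by depth.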
